A study of Mus musculus with 9 samples.

Results

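The Wnt receptors and effectors described here are 10 genes chosen by name: the Frizzled receptors Fzd4, Fzd6, Fzd7 and Fzd8, the membrane-bound Wnt inhibitor Apcdd1, the nuclear factors Lef1, Tcf7 and Tcf7l2, the β-catenin gene Ctnnb1, and Axin2. They were chosen with earlier results of these arrays known, so their own values are given as a description. Of the 10 genes, 9 were measured by 21 named probe sets (a probe set is the group of short probes that reads a transcript on an Affymetrix array), and Tcf7 was not analysed here. The whole series held 12393 named genes and 22626 probe sets on 9 arrays.

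The arrays measured RNA from C57BL/6 mouse bone marrow cells sorted as c-Kit+/Sca-1+/Lin-/IL7Ra- (KSL), a fraction that holds the haematopoietic stem and early progenitor cells, with 3 arrays in each of 3 groups. Control mice carried the floxed Runx1 allele on both chromosomes and no MxCre. Runx1KO mice carried the same floxed alleles with MxCre+/-. Cells of both groups were taken 3 months after the mice received poly IC, which switches on the interferon-responsive Mx promoter that drives Cre. This promoter is not restricted to the sorted cells, and responds in other tissues too. RUNX1(41-214) mice had received bone marrow cells transduced with a retroviral vector expressing a RUNX1 fragment, residues 41 to 214, and their cells were taken 4 months later. For this group the labels name neither a floxed allele nor poly IC, and no array of cells transplanted with an empty vector was among the 9. Transplantation, vector, poly IC, time and genotype therefore cannot be told apart in the comparisons with this group. Between Runx1KO and Control, the deletion and the presence of MxCre cannot be told apart either. The labels call the arrays of a group biological replicates, and whether animals were pooled is not given in the sources used here.

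Wnt proteins are lipid-modified secreted ligands that bind Frizzled receptors together with a coreceptor. In the canonical branch this stops a cytoplasmic complex built on Axin from destroying β-catenin, which then enters the nucleus and works with LEF and TCF proteins on target genes such as Axin2, itself a feedback inhibitor. Other branches run through Frizzled, Ror and Ryk receptors without β-catenin, and in bone marrow both kinds are studied for their part in stem cell renewal and lymphoid differentiation.

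The 9 arrays had median signals (the deposited linear intensity per probe set) of 124.9 to 147.2, and on the log2 scale used for the tests arrays of the same group correlated at 0.976 to 0.992 and arrays of different groups at 0.968 to 0.986. Gapdh probe sets at the 3′ end read higher than those at the 5′ end, a sign of RNA quality, by 2.13 on the log2 scale in Runx1KO replicate 3 and 1.85 in Control replicate 2, and 0.98 to 1.29 in the other 7 arrays. The brightest of 5 Runx1 probe sets had signals of 1701, 931.0 and 1475 in Control, 2417, 3476 and 2563 in Runx1KO, and 1815, 1958 and 2093 in RUNX1(41-214). None of the 5 was lower on average in Runx1KO than in Control, and 0 passed between these groups among all probe sets. Of the other 4, 1 was also highest on average in Runx1KO, 2 were highest in RUNX1(41-214), and 1 was at 8.22 and 8.25 (log2) in these groups. Since the place of these probes relative to the deleted part is not given in the sources used here, they do not check the deletion. The KSL marker list (8 of 10 measured) had summed signals of 14743 to 18267 in Control, 17759.5 to 18963 in Runx1KO and 16223 to 18946 in RUNX1(41-214), with Kit higher and Procr lower in RUNX1(41-214) than in Control. Although the sort removed IL7Ra+ cells, Il7r had signals between 279.5 and 1400 in Control and at most 43.8 in RUNX1(41-214).

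Differences are given as log2 fold changes of log2(signal + 16), a scale that understates the changes of dim genes, with the standard error (SE) of a limma fit over all 9 arrays. A gene passed when its Benjamini-Hochberg adjusted p, taken across all 12393 genes, was under 0.05. Between Runx1KO and Control 1 of the 9 measured Wnt genes passed (Apcdd1, lower), where 0.347% of all genes did. Between RUNX1(41-214) and Control 3 of 9 passed (Fzd6 higher, Fzd8 and Apcdd1 lower), against 4.28% of all genes. Between RUNX1(41-214) and Runx1KO 2 of 9 passed (Fzd6 higher, Fzd8 lower), against 1.36% of all genes. The arrays of the groups did not overlap for 2, 4 and 3 of the 9 genes in these comparisons, beside 10.5%, 20.3% and 18.8% of all genes. Because the genes were picked with these contrasts known, nothing is read from the difference between these shares. The median log2 fold change of the 9 genes was 0.31, 0.22 and -0.11, and that of all genes -0.004, 0.018 and 0.016.

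**Figure D1:**
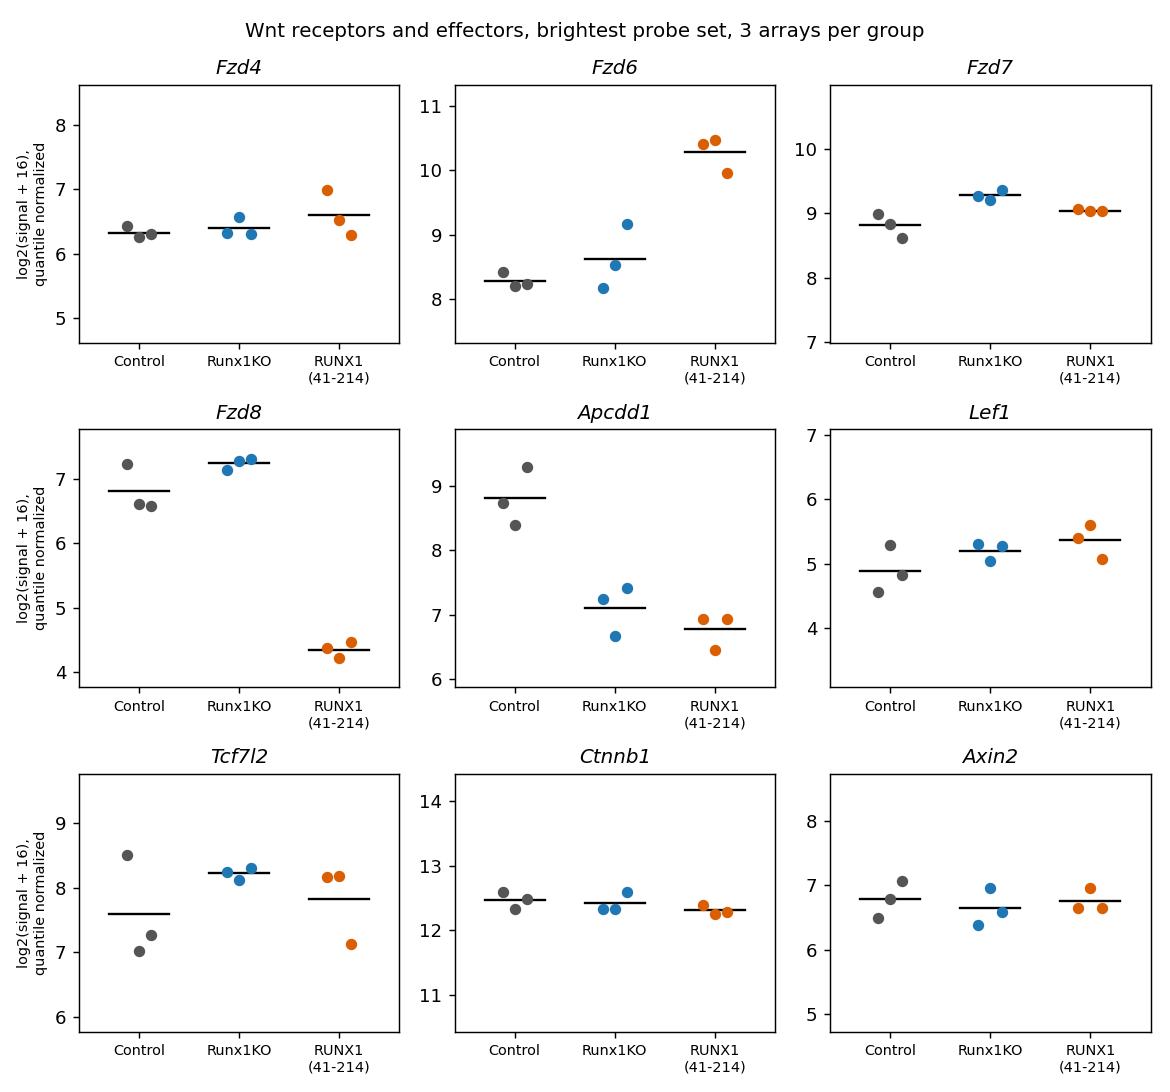
Level of the 9 measured Wnt genes by group, as quantile normalized log2(signal + 16) of the brightest probe set; each point is 1 array (n = 3 per group), the bar is the group mean, and every panel spans at least 4 log2 units but starts at its own level. Fzd6 stands higher and Fzd8 lower in all 3 RUNX1(41-214) arrays, Apcdd1 is lower in all arrays of both other groups than in Control, and Ctnnb1 and Axin2 lie at like levels throughout.

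Fzd6, a Frizzled receptor best known for its role in planar cell polarity, was the only Frizzled gene of the 4 that passed as higher in RUNX1(41-214) than in the other groups. Its signals were 331, 283 and 294 in Control, 289.8, 363 and 530.3 in Runx1KO, and 1368, 1394 and 969.5 in RUNX1(41-214). The lowest RUNX1(41-214) array was above every other array, while Control and Runx1KO overlapped and Runx1KO replicate 3 was the highest of those 6. The group means on the log2 scale were 8.29 ± 0.11, 8.62 ± 0.50 and 10.28 ± 0.28 (SD, n = 3 each) in that order. The log2 fold change of RUNX1(41-214) over Control was 1.99 ± 0.25 (SE; 95% interval 1.44 to 2.55), a 3.98-fold difference, and over Runx1KO it was 1.65 ± 0.25 (1.10 to 2.21). By size, these were the 45th and the 14th highest of the 12393 genes in their contrasts. Between Runx1KO and Control it was 0.34 ± 0.25 (-0.22 to 0.89), which did not pass, and 0.03 without the 2 arrays of highest Gapdh ratio. The pass against Runx1KO was lost when RUNX1(41-214) replicate 2 was left out.

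The second probe set of Fzd6 was dim, with signals of 26.4, 23.6 and 26.5 in Control, 25.3, 23.3 and 16.5 in Runx1KO, and 44.8, 52.6 and 55.9 in RUNX1(41-214). It showed the same order of the RUNX1(41-214) group, by 0.78 ± 0.16 over Control and 0.88 ± 0.16 over Runx1KO, and both passed when each probe set was tested on its own.

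Fzd8, a Frizzled receptor that signals with the LRP coreceptors to β-catenin, went the other way. Its single probe set had signals of 140.5, 84.7 and 84.5 in Control, 133, 143 and 141 in Runx1KO, and 4.49, 2.64 and 6.10 in RUNX1(41-214). The RUNX1(41-214) arrays lay far below the other 6, near the bottom of the signal range, and the highest Control array overlapped with Runx1KO. The means on the log2 scale were 6.81 ± 0.36, 7.24 ± 0.09 and 4.35 ± 0.12 (SD, n = 3 each). The log2 fold change was -2.46 ± 0.21 (SE; 95% interval -2.92 to -2.0) against Control and -2.90 ± 0.21 (-3.35 to -2.44) against Runx1KO. These sizes depend on the offset, since with an offset of 1 in place of 16 they were -4.21 and -4.71, and with 50 they were -1.43 and -1.77. Between Runx1KO and Control it was 0.44 ± 0.21 (-0.02 to 0.90), which did not pass. In such bulk samples, fewer cells that carry a transcript and less of it per cell cannot be told apart.

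Over the 9 arrays the levels of Fzd6 and Fzd8 ran opposite to each other, with a Pearson r of -0.892, and both share the split between the RUNX1(41-214) arrays and the rest. Of the 6193 other genes ranked (those with a mean level above the median), Gdpd3, Epb41l4b and Smim10l1 had the pattern most like that of Fzd8, with r of 0.989, 0.977 and 0.972. These are values of the brightest probe sets, which for Epb41l4b and Smim10l1 gave -1.92 and -2.30 in RUNX1(41-214) against Control. The second probe sets of these genes gave -0.13 ± 0.20 and 0.33 ± 0.25. Gdpd3, a lysophospholipase D gene, had signals of 2097, 1699 and 1746 in Control, 2671, 2758 and 2350.4 in Runx1KO, and 29.7, 23.4 and 19.9 in RUNX1(41-214). Those most like Fzd6 were Clec4e, Psd3 and S100a6, with r of 0.943, 0.942 and 0.941. Clec4e, a C-type lectin receptor of myeloid cells, had signals of 802, 624 and 631 in Control, 1084, 1100.0 and 1195 in Runx1KO, and 2382, 2259 and 1759 in RUNX1(41-214).

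Fzd7, a receptor of the canonical branch in many stem cells, showed a small spread. Its signals were 495, 453 and 387 in Control, 611, 604 and 607 in Runx1KO, and 512, 484 and 506 in RUNX1(41-214). On the normalized scale the 3 groups did not overlap, with Control lowest, RUNX1(41-214) between and Runx1KO highest. The log2 fold change was 0.46 ± 0.17 (SE; 95% interval 0.08 to 0.84) for Runx1KO over Control, 0.22 ± 0.17 (-0.16 to 0.60) for RUNX1(41-214) over Control, and -0.23 ± 0.17 (-0.61 to 0.15) for RUNX1(41-214) over Runx1KO, and none of the 3 passed. The second probe set stayed between 1.00 and 6.48 in all 9 arrays, and averaging it in brought the Runx1KO value to 0.23. Fzd4, known as a receptor for the ligand Norrin as well as for Wnt proteins, had signals of 72.4, 62.8 and 66.0 in Control, 66.1, 79.0 and 62.8 in Runx1KO, and 99.3, 69.5 and 62.5 in RUNX1(41-214). In this brightest probe set the groups overlapped throughout. Its log2 fold changes against Control were 0.07 ± 0.21 (-0.40 to 0.54) and 0.27 ± 0.21 (-0.20 to 0.74). The second Fzd4 probe set was dim, at 1.58 to 10 in Control, 4.39 to 8.46 in Runx1KO and 11.02 to 12.78 in RUNX1(41-214). There the RUNX1(41-214) arrays were above all others, by 0.41 ± 0.15 over Control and 0.32 ± 0.15 over Runx1KO. Neither difference passed among all probe sets.

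**Figure D2:**
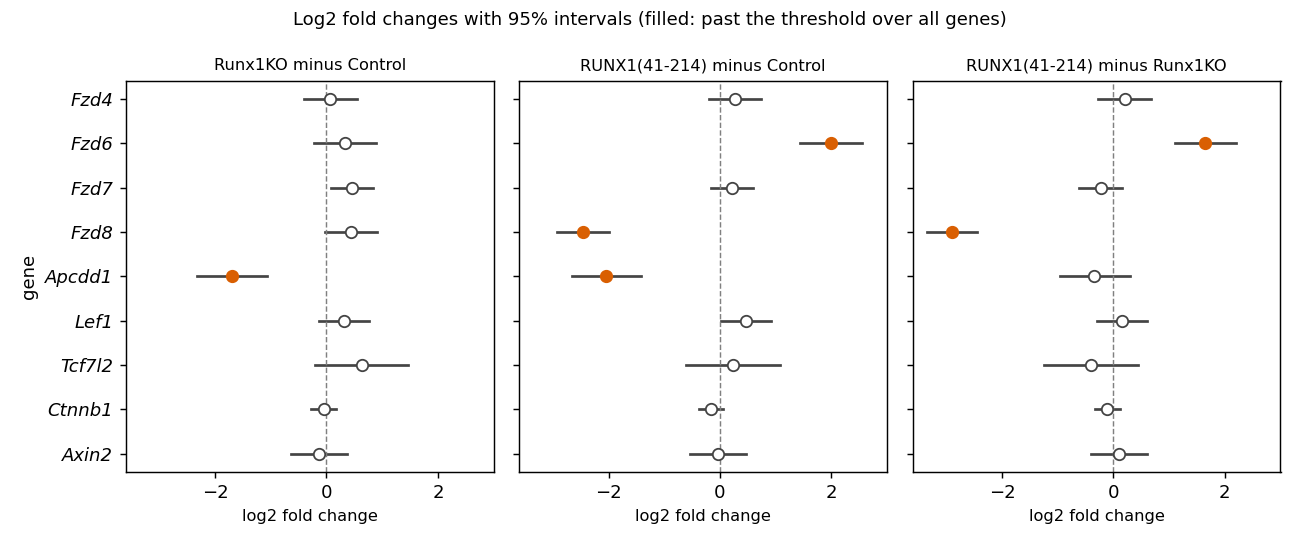
Log2 fold change (x axis) of each measured Wnt gene (y axis) in the 3 contrasts; points are limma estimates, lines their 95% intervals, and filled points passed the threshold over all genes. The filled points are Apcdd1 at -1.70 in the left panel, Fzd6 at 1.99, Fzd8 at -2.46 and Apcdd1 at -2.04 in the middle panel, and Fzd6 at 1.65 and Fzd8 at -2.90 in the right panel. The first 2 contrasts share the Control arrays and the last 2 the RUNX1(41-214) arrays.

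Apcdd1 encodes a membrane protein that binds Wnt ligands and LRP5 and holds the pathway down from outside the cell, and it was the only one of the 9 genes that passed in both comparisons with Control. Its brightest probe set had signals of 415, 329.5 and 613 in Control, 143, 87.0 and 153 in Runx1KO, and 96.0, 66.0 and 106 in RUNX1(41-214). All 3 Control arrays were above the other 6, and Runx1KO and RUNX1(41-214) overlapped. The log2 means were 8.81 ± 0.45, 7.11 ± 0.39 and 6.77 ± 0.27 (SD, n = 3 each). The log2 fold change was -1.70 ± 0.29 (SE; 95% interval -2.32 to -1.07) for Runx1KO and -2.04 ± 0.29 (-2.66 to -1.41) for RUNX1(41-214), both against the same Control arrays, and these were the 8th and the 61st lowest of all genes. RUNX1(41-214) against Runx1KO gave -0.34 ± 0.29 (-0.96 to 0.29), which did not pass.

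The lower Apcdd1 signal in Runx1KO was near the threshold. It no longer passed in 9 of 17 other settings, among them the fit of only the 6 arrays compared and the fits that left out Control replicate 1, Control replicate 3 or any of the Runx1KO or RUNX1(41-214) arrays, although the log2 fold change stayed between -2.06 and -1.03. Nor did this probe set pass when every probe set was tested on its own. The lower signal in RUNX1(41-214) passed in all 17, between -2.24 and -1.31. The other 3 Apcdd1 probe sets were also lower in both groups than in Control. The other probe set ending in _x_at had signals of 276, 221 and 241 in Control, 99.4, 87.4 and 90.4 in Runx1KO, and 58.4, 68.2 and 81.0 in RUNX1(41-214). Its groups were separated from Control in both comparisons, and its log2 fold changes of -1.26 ± 0.20 and -1.52 ± 0.20 passed among all probe sets. The other 2 gave -0.65 and -0.50 in Runx1KO and -0.82 and -0.87 in RUNX1(41-214), and did not pass. Probe sets ending in _x can also bind related transcripts, which applies to the 2 with the largest differences.

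**Figure D3:**
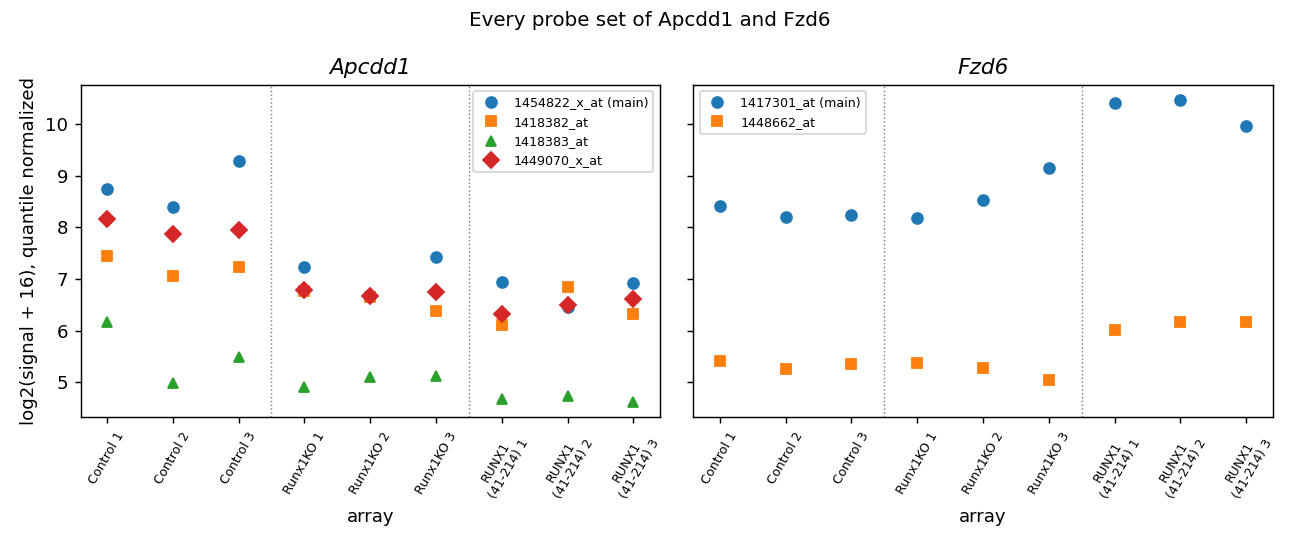
Every probe set of Apcdd1 (left, 4) and Fzd6 (right, 2) on each of the 9 arrays, as quantile normalized log2(signal + 16); dotted lines part the groups. The 2 Apcdd1 probe sets whose names end in _x_at differ by -1.70 and -1.26 (log2) between Runx1KO and Control, and both Fzd6 probe sets are highest in the RUNX1(41-214) arrays.

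The genes with a pattern most like that of Apcdd1 were Pard6g, Fam234b and Fxr1, with r of 0.962, 0.955 and 0.950 over the 9 arrays. In Runx1KO and RUNX1(41-214) against Control, Fam234b differed by -0.59 and -0.80 (log2) and Fxr1 by -0.22 and -0.26. The second Fxr1 probe set gave -0.05 and 0.17. The other Fam234b probe sets gave -0.09 and 0.23 in Runx1KO, and 0.05 and 0.18 in RUNX1(41-214). Pard6g, a gene of the Par6 cell polarity family, had signals of 1088, 711 and 1251 in Control, 516, 515 and 519 in Runx1KO, and 444, 403 and 439 in RUNX1(41-214). Of the 9 early lymphoid markers measured, 1 passed as lower in Runx1KO than in Control, beside 0.347% of all genes passing, and 5 passed as lower in RUNX1(41-214), beside 4.28%. The list (9 of 10 measured) had summed signals of 11867 to 15992 in Control, 8715 to 13643 in Runx1KO and 5054 to 6683 in RUNX1(41-214). Ccr9, a chemokine receptor of lymphoid progenitors on their way to the thymus, passed in both comparisons with Control, at -1.74 ± 0.29 (limma adjusted p = 0.0318) and -2.18 ± 0.29 (limma adjusted p = 0.00132). In RUNX1(41-214) Notch1 stood at -1.67 ± 0.16 and Dntt at -1.93 ± 0.24 against Control. Rag1, Rag2, Cd27 and Satb1 gave -3.25 ± 0.89, -0.39 ± 0.47, 0.32 ± 0.29 and -0.11 ± 0.26 in this comparison without passing. The B cell list (9 of 10) summed to 6086 to 6599, 4479 to 9610.2 and 1456 to 1811. Most of that sum was Ighm, at 4792 to 5383 in Control and 577 to 779 in RUNX1(41-214); Vpreb1, Blnk and Ighm passed as lower there, Cd79b and Igll1 gave 0.08 ± 0.20 and 0.54 ± 0.29 without passing, and Pax5 was at most 3.14 in Control. The T and NK list (14 of 15) summed to 1869.5 to 2234, 1245 to 1866 and 886 to 1069. Thy1, Bcl11b and Nkg7 passed as lower in RUNX1(41-214) than in Control, where the median log2 fold change of the list was -0.22. Cd8a and Cd3g gave 0.66 ± 0.22 and 0.50 ± 0.26 in this comparison without passing. Bcl11b ranged from 18.8 to 259 in Control, and Nkg7 was the largest part of the summed signal there. Nkg7 had signals of 942 to 1243 in Control and 120 to 250 in RUNX1(41-214), while Cd3e and Cd4 were at most 24.6 and 19.0 in Control. The stromal and endothelial list (10 of 10) summed to 1197 to 1799, 1363 to 1712 and 1353 to 1457, with none past the threshold. Most of that sum was Pdgfrb, at 767 to 1318 in Control, while Cdh5 was at most 36.2 there. The megakaryocyte and platelet list (10 of 10) summed to 7311 to 9043, 13176 to 14168 and 17992 to 20967. Against Control 3 members passed as higher in Runx1KO, beside 0.347% of all genes, and 5 in RUNX1(41-214), beside 4.28%. In RUNX1(41-214) against Control Gp9, Gp1bb, Pf4, Ppbp and Vwf gave 0.32, 0.67, 0.76, 2.03 and -0.72 without passing. The erythroid list (7 of 9) summed to 2165 to 5671, 1954 to 3273 and 1765 to 3749.8. In RUNX1(41-214) against Control its members Alas2 and Slc4a1 passed as higher, at 2.20 ± 0.41 and 2.91 ± 0.55, and Tfrc as lower, at -0.75 ± 0.18. The granulocyte and monocyte list (11 of 12) summed to 11397 to 18638, 13641 to 19538 and 15211 to 18405. In the same comparison Csf3r passed as higher, at 0.71 ± 0.18, and Ccr2 and Cd74 as lower, at -2.69 ± 0.35 and -0.93 ± 0.23. The part of these cell types in the Wnt values was not tested.

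None of the 4 measured effectors inside the cell passed in any contrast, and of their 95% intervals only that of Lef1 in RUNX1(41-214) against Control left out 0. Ctnnb1, which encodes β-catenin, had signals of 6100.3, 5185 and 5261 in Control, 5372, 5223 and 5847 in Runx1KO, and 5565, 4967 and 4934 in RUNX1(41-214). All groups overlapped. Its log2 fold change was -0.05 ± 0.10 (SE; 95% interval -0.27 to 0.17) in Runx1KO and -0.16 ± 0.10 (-0.38 to 0.06) in RUNX1(41-214) against Control. Its other 2 probe sets did not pass either, and gave 0.56 and 0.29 in Runx1KO and 0.28 and 0.22 in RUNX1(41-214).

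Axin2, a widely used readout of β-catenin activity, had signals of 77.1, 96.8 and 124 in Control, 69.8, 110.4 and 80.2 in Runx1KO, and 75.8, 97.5 and 83.2 in RUNX1(41-214). Its groups overlapped. Its log2 fold change was -0.14 ± 0.23 (-0.64 to 0.37) in Runx1KO and -0.03 ± 0.23 (-0.54 to 0.47) in RUNX1(41-214) against Control.

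The 2 measured LEF and TCF genes did not pass in any contrast. Tcf7l2, which encodes a TCF protein found in many tissues, had signals of 357, 117 and 144 in Control, 305, 270.3 and 292 in Runx1KO, and 260.3, 256 and 125 in RUNX1(41-214). Control replicate 1 and RUNX1(41-214) replicate 3 stood apart from the other arrays of their groups, and the intervals were wide, with 0.63 ± 0.38 (SE; -0.21 to 1.47) in Runx1KO and 0.23 ± 0.38 (-0.61 to 1.07) in RUNX1(41-214) against Control. None of its 4 probe sets passed. Lef1, which encodes a partner of β-catenin known for its role in lymphocyte development, was dim, with signals of 7.45, 24.9 and 12.9 in Control, 22.9, 17.3 and 21.9 in Runx1KO, and 24.2, 32.1 and 17.6 in RUNX1(41-214). Its groups overlapped, and it gave 0.31 ± 0.21 (-0.14 to 0.77) and 0.47 ± 0.21 (0.01 to 0.92) against Control. These signals are close to the offset of 16.

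The wider pathway was described by lists of 124 other Wnt genes, of which 110 were measured. Between Runx1KO and Control 0 of the 110 passed limma's test, and 7 (6.36%) had an unadjusted p under 0.05, beside 7.22% of all genes. Between RUNX1(41-214) and Control 6 of the 110 (5.45%) passed, 2 higher and 4 lower, beside 4.28% of all genes, and 19 (17.3%) had an unadjusted p under 0.05, beside 15.5% of all genes. Between RUNX1(41-214) and Runx1KO 4 of the 110 (3.64%) passed, all lower, beside 1.36% of all genes, and 13 (11.8%) had an unadjusted p under 0.05, beside 10.6% of all genes. The median log2 fold change of the 110 genes was -0.01, 0.01 and -0.01 in these 3 contrasts.

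Of the 23 measured ligand and secretion genes, 2 (8.7%) passed between RUNX1(41-214) and Control, beside 4.28% of all genes. They were the secretion genes Porcn and Wls. Porcn encodes the acyltransferase that attaches the lipid to Wnt proteins. Its signals were 62.0, 55.2 and 47.3 in Control, 55.1, 69.9 and 71.2 in Runx1KO, and 17.9, 8.86 and 5.81 in RUNX1(41-214). The RUNX1(41-214) arrays were below the other 6 without overlap. Its log2 fold change was -1.36 ± 0.21 against Control (SE; limma adjusted p = 0.00317) and -1.59 ± 0.21 against Runx1KO (limma adjusted p = 0.00312), and it passed in all 17 other settings, with sizes against Control from -2.28 (offset 1) to -0.75 (offset 50). Wls encodes the carrier that takes lipid-modified Wnt proteins to the cell surface. Its brightest probe set had signals of 1317, 856 and 1060.0 in Control, 1313, 1433 and 1521 in Runx1KO, and 557, 541 and 485 in RUNX1(41-214). These too were separate from the other groups, at -0.96 ± 0.19 against Control (limma adjusted p = 0.0124) and -1.37 ± 0.19 against Runx1KO (limma adjusted p = 0.00383). Its other 2 probe sets gave -0.70 and -0.09 against Control and did not pass, and with the mean of the probe sets Wls no longer passed against Control, at -0.59.

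Among the 14 other receptors measured, 2 (14.3%) passed between RUNX1(41-214) and Control, beside 4.28% of all genes. They were Ryk and Fzd3, both lower in RUNX1(41-214). Against Runx1KO 2 (14.3%) passed, Ryk and Ror1, again both lower, beside 1.36% of all genes. Ryk, a Wnt receptor related to tyrosine kinases, had signals of 135, 262 and 116 in Control, 109, 217 and 158 in Runx1KO, and 37.8, 39.7 and 44.8 in RUNX1(41-214). Its log2 fold change was -1.55 ± 0.31 against Control (limma adjusted p = 0.0145) and -1.53 ± 0.31 against Runx1KO (limma adjusted p = 0.0349). The difference from Control was lost without RUNX1(41-214) replicate 1 or replicate 2, and that from Runx1KO in 7 of 17 other settings, 6 of which left out 1 array (Control replicate 1, Runx1KO replicate 2 or 3, or any RUNX1(41-214) replicate). Its second probe set gave -1.43 ± 0.24 against Control and passed among all probe sets. Ror1, a receptor for Wnt5a, had signals of 35.4, 36.7 and 25.5 in Control, 64.5, 51.7 and 62.5 in Runx1KO, and 14.4, 12.5 and 21.6 in RUNX1(41-214). The 3 groups did not overlap, and Ror1 passed against Runx1KO at -1.21 ± 0.18 (limma adjusted p = 0.00610), with -1.80 and -0.71 at offsets of 1 and 50. It did not pass between RUNX1(41-214) and Control, at -0.54 ± 0.18 (limma adjusted p = 0.149), nor between Runx1KO and Control, at 0.67 ± 0.18 (limma adjusted p = 0.211). Fzd3, a further Frizzled receptor known for axon guidance, had signals of 112, 103 and 80.0 in Control, 62.0, 82.0 and 70.6 in Runx1KO, and 46.7, 48.8 and 40.7 in RUNX1(41-214). Its difference from Control of -0.78 ± 0.20 was at the threshold (limma adjusted p = 0.0499) and was lost in 15 of 17 other settings, among them each fit that left out 1 array. The other Fzd3 probe sets gave -0.12, -0.24 and -0.61 against Control. None of its 4 probe sets passed among all probe sets.

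Promoters are shown for the receptors and the secretion gene to give the sequence in front of genes whose signal is described above: Fzd7 among the 10 genes, and Wls, Ryk and Ror1 among the others. They were chosen after the values were seen, from those with an entry in the RefSeq promoter table (GRCm38.p6), which held 7 of the 10 genes. Each is the 250 bases before the transcription start, on the plus strand, 5′ to 3′. The regions are chr1:59481897-59482146 for Fzd7, chr3:159839400-159839649 for Wls, chr9:102834670-102834919 for Ryk and chr4:100095541-100095790 for Ror1. Capitals mark matches of either strand to TGTGGT, the core of the RUNX binding motif, or to CTTTGAT and CTTTGAA, which TCF and LEF proteins bind.
Fzd7: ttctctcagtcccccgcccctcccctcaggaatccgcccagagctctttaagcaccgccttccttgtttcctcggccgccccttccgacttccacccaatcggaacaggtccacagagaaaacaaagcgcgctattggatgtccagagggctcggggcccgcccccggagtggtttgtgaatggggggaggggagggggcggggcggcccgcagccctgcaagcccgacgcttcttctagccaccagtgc
Wls: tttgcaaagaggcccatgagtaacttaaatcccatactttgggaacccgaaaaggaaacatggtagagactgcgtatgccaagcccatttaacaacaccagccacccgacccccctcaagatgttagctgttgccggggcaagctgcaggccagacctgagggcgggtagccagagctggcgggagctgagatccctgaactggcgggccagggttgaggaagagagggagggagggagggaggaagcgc
Ryk: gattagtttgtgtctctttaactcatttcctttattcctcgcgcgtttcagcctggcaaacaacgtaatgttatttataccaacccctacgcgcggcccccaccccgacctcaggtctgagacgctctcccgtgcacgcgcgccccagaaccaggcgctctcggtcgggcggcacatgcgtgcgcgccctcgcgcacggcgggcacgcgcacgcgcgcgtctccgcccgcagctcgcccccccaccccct
Ror1: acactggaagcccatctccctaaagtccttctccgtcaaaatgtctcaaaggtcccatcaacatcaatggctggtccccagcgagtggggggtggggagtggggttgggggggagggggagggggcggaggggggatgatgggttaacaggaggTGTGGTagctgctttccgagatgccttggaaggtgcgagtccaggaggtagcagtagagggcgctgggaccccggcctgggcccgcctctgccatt
The only match in these windows was TGTGGT in Ror1, 96 bases before the start, and it was also the only match among the windows of the 7 genes and of the other 10 named Wnt genes with an entry. Of all 32851 windows in the table, 14.0% held TGTGGT, 3.21% CTTTGAT and 4.46% CTTTGAA. A match says only that these letters are present.

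Of the 14 secreted inhibitors measured, 1 (7.14%) passed between RUNX1(41-214) and Control, beside 4.28% of all genes. Frzb, a secreted Frizzled-related protein, was higher in RUNX1(41-214) than in Control. Its signals were 15.6, 10.7 and 9.03 in Control, 21.7, 25.3 and 43.1 in Runx1KO, and 85.3, 51.9 and 24.6 in RUNX1(41-214). The log2 fold change was 1.32 ± 0.31 (limma adjusted p = 0.0360). RUNX1(41-214) overlapped with Runx1KO but not with Control. The difference was lost in 11 of 17 other settings, among them those without each Control array, Runx1KO replicate 1 or 2, or RUNX1(41-214) replicate 1 or 2, and its second probe set gave 0.10 ± 0.18.

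Of the 16 reported target genes measured, 1 (6.25%) passed between RUNX1(41-214) and Control, beside 4.28% of all genes. This was Myc, and it was higher in RUNX1(41-214). Its signals were 1519, 1533 and 915 in Control, 1989, 1721 and 1594 in Runx1KO, and 2487, 2266 and 2131 in RUNX1(41-214), with no overlap between any 2 groups. Its log2 fold change against Control was 0.83 ± 0.18 (limma adjusted p = 0.0249), and it was lost in the fit of only the 6 arrays and without any of the 3 RUNX1(41-214) arrays. Runx1KO against Control gave 0.45 ± 0.18 (limma adjusted p = 0.585). The target list went both ways in RUNX1(41-214) against Control, with 7 genes above 0 and 9 below. Id2 gave -1.27 ± 0.33 (limma adjusted p = 0.0579) and Jun -1.50 ± 0.64 (limma adjusted p = 0.279), neither of which passed.

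None of the 22 other cytoplasmic components passed limma's test in any contrast, with 1, 3 and 1 of them at an unadjusted p under 0.05 in the 3 contrasts, beside 7.22%, 15.5% and 10.6% of all genes. The same shares stand beside the counts of the nuclear and planar polarity lists. The lowest p-values in this group belonged to Cby1, which encodes the β-catenin antagonist Chibby, and to Frat1, which encodes a GSK3-binding protein. Cby1 had signals of 531, 444 and 412 in Control, 325, 329.6 and 218 in Runx1KO, and 205, 192 and 341 in RUNX1(41-214), and its log2 fold changes against Control were -0.66 ± 0.24 and -0.82 ± 0.24 (limma adjusted p = 0.484 and 0.103). Frat1 gave -0.10 ± 0.28 and 0.78 ± 0.28 against Control. None of the 18 nuclear cofactors passed, with 0, 1 and 1 at an unadjusted p under 0.05, and Tcf7l1, the TCF family member that mostly represses, gave 0.45 ± 0.42 and -0.68 ± 0.42 against Control. Ruvbl1, which encodes a chromatin-remodelling ATPase, gave -0.15 ± 0.17 and -0.43 ± 0.17. None of the 7 planar polarity genes passed, with 1, 0 and 0 at an unadjusted p under 0.05. Invs, which encodes inversin, gave -0.12 ± 0.24 and -0.49 ± 0.24 against Control, and Celsr3, an adhesion cadherin, gave 0.35 ± 0.15 and 0.18 ± 0.15.

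**Figure D4:**
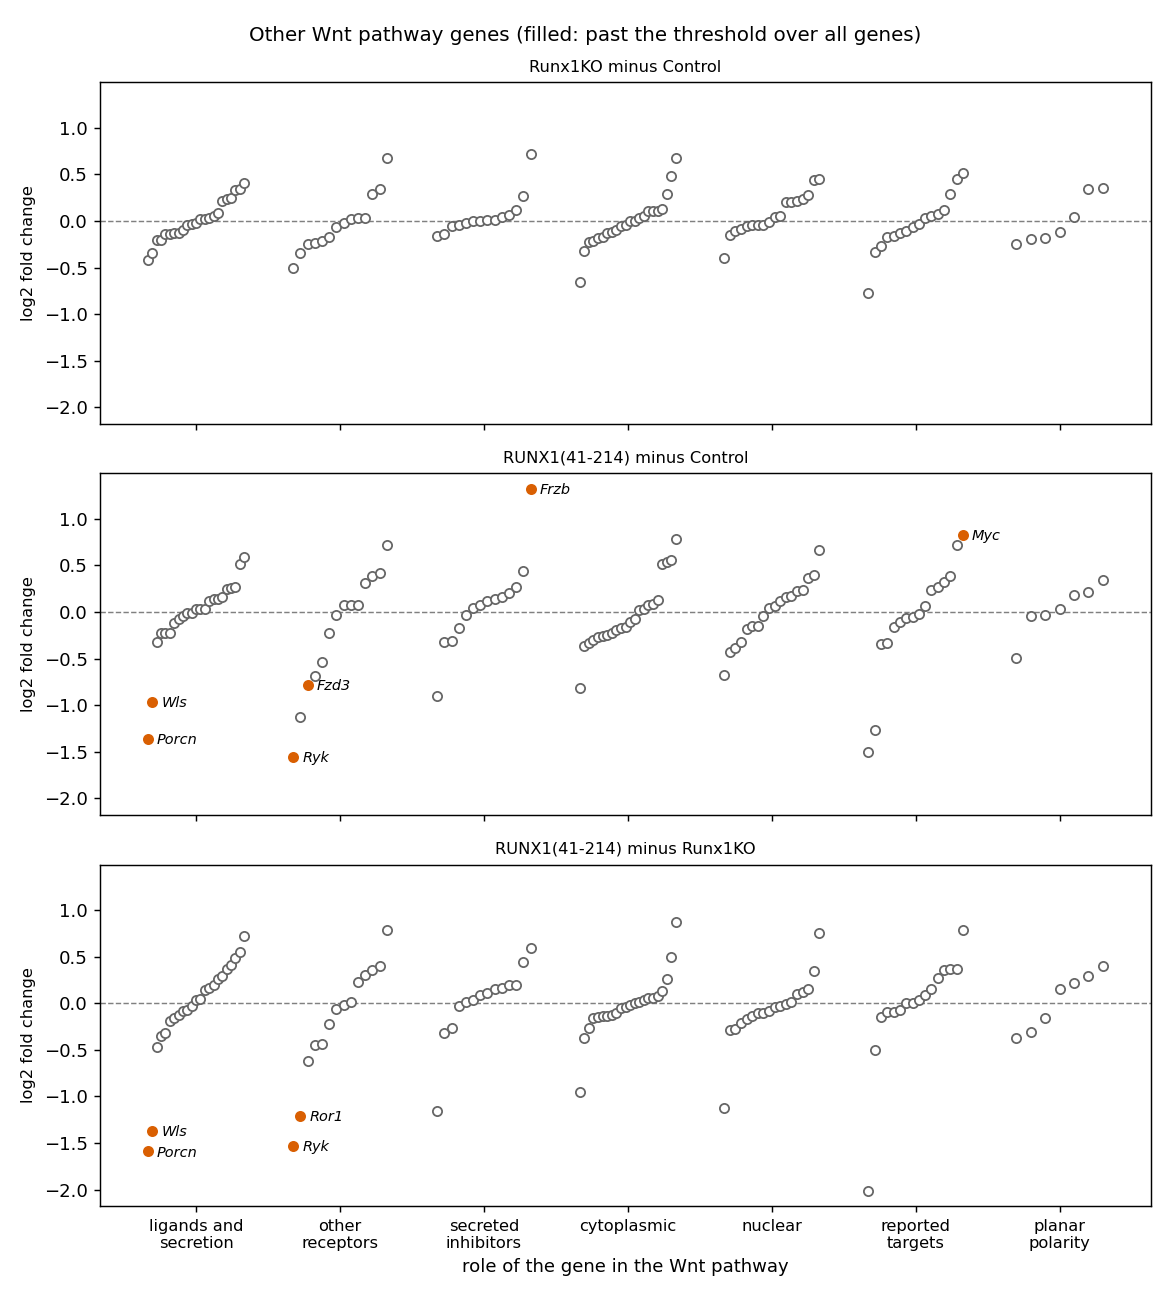
Log2 fold change (y axis) of the 110 other Wnt genes measured, grouped by role (x axis; a gene in 2 lists is drawn in each) and ordered by value within a role, in the 3 contrasts; filled, named points passed the threshold over all genes. No point is filled for Runx1KO minus Control, 6 are for RUNX1(41-214) minus Control (Porcn, Wls, Ryk and Fzd3 lower, Frzb and Myc higher) and 4 are for RUNX1(41-214) minus Runx1KO (Porcn, Wls, Ryk and Ror1 lower).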

How the data were processed

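The 9 Affymetrix arrays (3 per group, grouped by their labels) carry amplified, biotin-labelled RNA per the labels' protocols. The authors deposited a linear signal intensity for each probe set, between 0.53 and 20215. How probes were summarised or scaled is not stated in the labels or headers. After 64 control probe sets were set aside, signals were converted to log2(signal + 16) and quantile normalized, because array medians spanned 0.211. Of 22626 probe sets, 20380 carried 1 gene symbol in the platform annotation, 691 several and 1555 none; each gene was represented by its brightest probe set (12393 genes). All 9 arrays entered a limma 3.58.1 fit of the 3 group means (R 4.3.3, lmFit and trended eBayes; 6 residual and 5.60 prior degrees of freedom), two-sided, with Benjamini-Hochberg adjustment over all genes and a threshold of 0.05. The script was tested on simulated data.

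The Wnt genes, the other gene lists and the tests were chosen with earlier results of these data known. Named were all 10 Wnt genes; from each other Wnt list up to 4 genes that passed in any contrast, or, failing that, the 2 of lowest p; for the 3 Wnt genes with the strongest moderated F test, the 3 genes most correlated with each. Marker genes were named from those past the threshold and from those that did not pass, and not every marker that passed was named. The precision is limited by the 3 arrays per group. Same-numbered arrays did not deviate together in all pairs (correlations of deviations between -0.17 and 0.42), so the numbers were not used as pairs. The motif search used the 250 bases before each start in the RefSeq table. Alternatives changed the normalization, the offset (1 or 50), a filter on dim genes, the handling of probe sets, array weights, the arrays in the fit and a replicate block.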

Additional observations from a re-analysis of the deposited data

How the results depend on the processing

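With 3 arrays per group, the counts of genes past the threshold moved with the arrays and the filter, while 0 named values that had passed changed sign. Between Runx1KO and Control the count over all genes was 43, and 9 in the fit of only the 6 arrays compared, 27 when every probe set was tested on its own, and 14 to 51 when 1 array was left out; the count among the 9 Wnt genes went from 1 to 0 without dim genes and with only the 6 arrays, and was 0 to 1 with 1 array left out. The filter on dim genes kept 6197 of the 12393 genes, so the counts without dim genes are out of fewer genes. Between RUNX1(41-214) and Control the count was 531 over all genes, 262 without dim genes and 295 to 613 with 1 array left out. It rose to 766 with array weights and to 763 without the 2 arrays of highest Gapdh ratio. The 3 Wnt genes became 1 without dim genes, since Fzd8 and Apcdd1 were no longer tested. Without dim genes 34 of the 110 other Wnt genes were left, and the 6 that passed became 2. They became 3 with the mean of the probe sets of a gene, and 2 to 6 with 1 array left out. They became 8 without the 2 arrays of highest Gapdh ratio. Between RUNX1(41-214) and Runx1KO it was 168 over all genes, 77 without dim genes, 371 with array weights and 74 to 208 with 1 array left out; the 2 Wnt genes became 1 without dim genes and 1 to 2 with 1 array left out, and the 4 other Wnt genes became 1 without dim genes. Except where fewer genes or arrays were tested, the cause was not tested. With the replicate block, 48, 539 and 171 genes passed in the 3 contrasts, with 1, 3 and 2 of the Wnt genes; 0 of the 9 arrays correlated best with the arrays of its own number, and the block ended the call of Fzd3 against Control. Differences of dim genes such as Lef1 and Fzd8 are limited by signals close to the offset.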
